A study of Homo sapiens with 18 samples.

Results

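Monocyte and granulocyte surface and effector genes were followed in MV4-11 and THP1, 2 cell lines of acute myeloid leukemia, under IACS-010759 (IACS), which blocks complex I of the mitochondrial respiratory chain. The 36 members were chosen by name, out of 45372 gene symbols measured, and fall into 9 roles: primary granule proteins, secreted and intracellular effectors, growth factor receptors, chemokine receptors, pattern recognition and scavenger receptors, Fc receptors with ITAM adaptors, ITIM receptors, integrins, and antigen presentation and costimulation. RNA sequencing covered 18 libraries, 3 independent replicates each of MV4-11 and THP1 cells given DMSO, 50 nM IACS for 8 h or 50 nM IACS for 24 h. MV4-11 carries a KMT2A-AFF1 fusion and an internal tandem duplication of FLT3, THP1 carries a KMT2A rearrangement with an NRAS mutation, and both derive from monocytic leukemia. No genotype was altered, and the time of the DMSO libraries was not given in the sources used here. Each cell line is 1 established line, so a difference between them is a difference between these 2 lines and not between genotypes.

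Myeloid cells arm themselves in stages. Promyelocytes transcribe the primary granule proteins, which are packed into granules and later used to kill microbes, and the genes are switched off as the cell matures. Monocytes and macrophages then display receptors that sense microbial products, bind antibody-coated targets, respond to growth factors and chemokines, and adhere to tissue, with ITAM adaptors passing on activating signals and ITIM receptors restraining them.

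The promoters of the primary granule genes and of CD14 are shown because the granule proteases were among the most abundant members and CD14, the marker of classical monocytes, was under 1 TPM in both lines. RefSeq (GRCh38.p14) gave an entry, 250 bases before to 50 bases after the start site, for 29 of the 36 members. HLA-DRA, ELANE, MPO, CD4, LYZ, OSCAR and ITGAX had no entry. The entries printed are AZU1 at chr19:827587-827886 (+ strand), PRTN3 at chr19:840749-841048 (+ strand), CTSG at chr14:24576201-24576500 (- strand) and CD14 at chr5:140633126-140633425 (- strand), each 5′ to 3′ on the strand of its gene. Capitals mark GAGGAA (the core of the PU.1 motif), TTGCNNAA (a C/EBP motif) and TGTGGT (a RUNX1 motif) on either strand.
AZU1: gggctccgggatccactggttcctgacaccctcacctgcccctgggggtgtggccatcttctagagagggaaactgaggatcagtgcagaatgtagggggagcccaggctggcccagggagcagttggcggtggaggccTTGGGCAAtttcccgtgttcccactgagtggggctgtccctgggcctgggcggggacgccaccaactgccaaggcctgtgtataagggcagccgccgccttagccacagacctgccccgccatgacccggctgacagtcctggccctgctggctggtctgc
PRTN3: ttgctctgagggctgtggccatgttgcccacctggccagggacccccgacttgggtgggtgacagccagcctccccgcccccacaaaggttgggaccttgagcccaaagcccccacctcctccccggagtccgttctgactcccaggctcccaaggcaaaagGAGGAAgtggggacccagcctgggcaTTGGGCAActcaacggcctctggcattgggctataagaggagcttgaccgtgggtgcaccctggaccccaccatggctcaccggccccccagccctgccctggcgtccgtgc
CTSG: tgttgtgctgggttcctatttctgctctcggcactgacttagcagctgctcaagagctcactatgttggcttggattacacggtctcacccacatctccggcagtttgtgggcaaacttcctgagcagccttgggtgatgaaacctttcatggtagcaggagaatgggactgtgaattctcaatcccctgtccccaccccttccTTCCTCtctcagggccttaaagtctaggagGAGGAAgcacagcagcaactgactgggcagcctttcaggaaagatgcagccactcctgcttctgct
CD14: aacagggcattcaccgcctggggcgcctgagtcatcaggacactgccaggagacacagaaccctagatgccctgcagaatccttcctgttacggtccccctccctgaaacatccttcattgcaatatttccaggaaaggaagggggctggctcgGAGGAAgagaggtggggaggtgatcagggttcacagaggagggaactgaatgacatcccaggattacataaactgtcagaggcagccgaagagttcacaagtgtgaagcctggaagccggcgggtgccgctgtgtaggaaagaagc

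GAGGAA was present once in the PRTN3 window, starting at base -88 from the start site, on each strand of that of CTSG (bases -16 and -46), and once in that of CD14 (base -96). TTGCNNAA was found on the opposite strand of AZU1 (base -111) and PRTN3 (base -62). Over the 49 entries of the 29 members, GAGGAA was present in 31 (63.3%), against 27.9% of all 35116 promoters of the same length. TTGCNNAA was in 6 of the 49 entries (12.2%, against 10.5% of all promoters) and TGTGGT in 13 (26.5%, against 13.1%). These are matches of letters, several members have more than 1 entry, and no binding was measured.

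The members also shared genome neighborhoods (GRCh38, GENCODE release 44). AZU1 (chr19:825097-832018), PRTN3 (chr19:840999-848175) and ELANE (chr19:851014-856247) lie side by side on the + strand of chromosome 19. TYROBP, CD33, OSCAR, LILRB1, LILRB2 and LILRB4 are on the same chromosome, which thus held 9 of the 36 members (against 7.59% of the 12505 expressed genes with a position). ITGAM (chr16:31259967-31332892) and ITGAX (chr16:31355134-31382999) are neighbors, as are LST1 (chr6:31586124-31588909) and AIF1 (chr6:31615217-31617021), and S100A9 (chr1:153357854-153361023) and S100A8 (chr1:153390032-153391073).

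The unit was TPM, the share of a library's transcripts that a gene holds after division by its length, so levels can be compared between genes. Whole-read steps in the low values put the libraries at 21.7 M to 28.5 M reads or read pairs, and 1 TPM of a gene with 1 kb of exon at 8.7 to 13.99 reads. Replicate 3 stood apart in both lines: CD38, a progenitor and plasma cell surface enzyme, was at 2.95 to 3.06 TPM in the 3 replicate 3 libraries of MV4-11 and at 0.438 to 0.762 TPM in the other 6. In THP1, NKG7, a cytotoxic granule gene, was at 3.72 to 4.31 TPM in replicate 3 and at 8.43 to 12.01 TPM in the other 6. A set of 5 abundant noncoding RNAs held 42.5% to 44.7% of the TPM in MV4-11 DMSO, 34.2% to 46.6% with IACS, 44.1% to 53.0% in THP1 DMSO and 45.3% to 57.2% with IACS. The median log2 difference of all genes was -0.12 in THP1 at 8 h and at 24 h, and 0.06 and 0.08 in MV4-11. The changes below were tested without taking off that shift, and counts after median-of-ratios scaling are given for 24 h. None of 6 T cell markers and none of 4 epithelial or fibroblast markers reached a mean of 1 TPM in either line. Of 4 NK cell markers NKG7 alone did, with the list summing to 55.2 to 79.8 TPM in MV4-11 libraries and 3.72 to 12.1 TPM in THP1, and the B cell, erythroid and megakaryocyte lists summed to 1.48 to 16.2 TPM. These are bulk samples, in which fewer cells of a type and less RNA per cell cannot be told apart.

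Most members were expressed in both lines. Averaged over its 9 libraries, MV4-11 had 33 of 36 members at 1 TPM or more, all but VCAN, CD14 and CD86, and THP1 also had 33, all but CD14, CD86 and LILRB1. ITGAM reached it in MV4-11 only through IACS 24 h (mean 1.39 TPM), since its mean was 0.838 TPM in DMSO and 0.986 TPM at 8 h. Differences were tested by limma on log2(TPM + 1), which understates the change of low genes. A call needed a Benjamini-Hochberg adjusted p under 0.05 over all genes tested and a change beyond 1.5-fold.

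**Figure D1:**
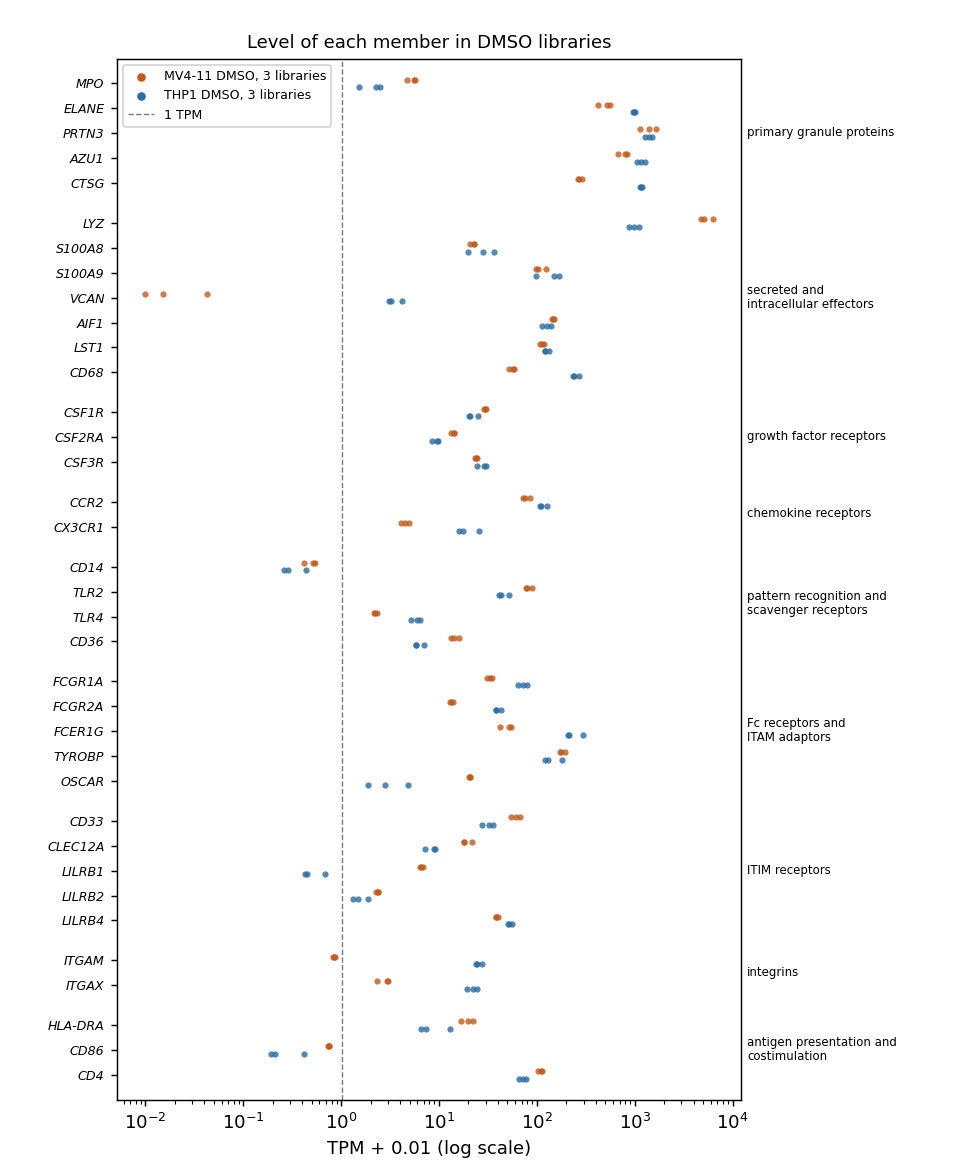
Level of each of the 36 members in the 3 DMSO libraries of MV4-11 (orange) and THP1 (blue), as TPM + 0.01 on a log axis, by role, with 1 TPM marked by the dashed line. LYZ and 4 of the 5 primary granule genes lie at the right, CD14 and CD86 lie left of 1 TPM in both lines, VCAN and ITGAM are left of it in MV4-11 alone and LILRB1 in THP1 alone.

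Of the 5 members that encode primary granule proteins 4 were abundant in both lines, and MPO was far below them. PRTN3 encodes proteinase 3, a serine protease, and was at 1125, 1388 and 1649 TPM in the DMSO libraries of MV4-11 and at 1400, 1513 and 1271 TPM in those of THP1. The lines overlapped, and no difference was called (log2 difference THP1 minus MV4-11 0.02 ± 0.26 SE, limma adjusted p = 0.954). By mean DMSO level PRTN3 ranked 33rd of all symbols in MV4-11 and 28th in THP1. CTSG, which encodes the serine protease cathepsin G, was at 273, 290 and 266 TPM in MV4-11 and at 1180, 1154 and 1124 TPM in THP1. It was 4.16-fold higher in THP1 (log2 2.06 ± 0.11 SE, limma adjusted p = 3.56e-11). ELANE, encoding neutrophil elastase, was at 423, 520 and 557 TPM in MV4-11 and 968, 992 and 1005 TPM in THP1, a 1.99-fold difference (limma adjusted p = 0.000657). AZU1, encoding the antimicrobial protein azurocidin, was at 678, 802 and 831 TPM against 1169, 1261 and 1061 TPM, a 1.51-fold difference (limma adjusted p = 0.0209). Of the 3 neighbors on chromosome 19, ELANE and AZU1 were thus called higher in THP1 and PRTN3 was not called. AZU1 lies at the fold threshold, and its call was kept in 24 of 27 alternative settings.

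MPO, encoding myeloperoxidase and the classic marker of primary granules, was at 5.52, 4.74 and 5.70 TPM in MV4-11 and at 2.48, 2.29 and 1.503 TPM in THP1. It was thus the lowest of the 5 in every library, and it was lower in THP1 (log2 -1.04 ± 0.23 SE, limma adjusted p = 0.000888). Of 14 other granule genes, 6 were tested in MV4-11 and 7 in THP1. SRGN, the proteoglycan that packs granule proteases, was the most abundant (mean over 9 libraries 2483 TPM in MV4-11 and 3159 TPM in THP1). The secondary and tertiary granule genes LTF, LCN2, MMP8, MMP9 and CEACAM8 were at a mean of at most 0.149 TPM, but CAMP, of the same granules, averaged 4.13 TPM in THP1 and 0.220 TPM in MV4-11. BPI and DEFA4, which also encode primary granule proteins, were low, averaging 0.670 and 0.0338 TPM in MV4-11 and 0.0693 and 0.248 TPM in THP1. Between the lines, 1 of the 6 expressed in both lines was higher in THP1 and 3 lower, beside 20.9% and 17.3% of all genes, while CAMP entered through THP1 alone. The largest differences were in CST7 (log2 -2.47), CAMP (2.17) and RNASE2 (1.84).

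LYZ, encoding lysozyme, which cleaves bacterial cell walls, was the most abundant member in MV4-11, while in THP1 it lay below PRTN3, AZU1, CTSG and ELANE. It was at 5156, 4706 and 6254 TPM in MV4-11 DMSO, rank 9 of all symbols, and at 985, 874 and 1100 TPM in THP1. It was 5.43-fold lower in THP1 (log2 -2.44 ± 0.23 SE, limma adjusted p = 4.30e-08). CD68, a lysosomal membrane glycoprotein, went the other way, with 51.9, 57.4 and 58.2 TPM in MV4-11 and 233, 239 and 271 TPM in THP1, a 4.37-fold difference (limma adjusted p = 3.54e-11). VCAN encodes the matrix proteoglycan versican. It was at 0 to 0.0330 TPM in MV4-11 and at 4.15, 3.05 and 3.21 TPM in THP1, so it entered the test through THP1 alone. AIF1, LST1, S100A8 and S100A9 did not pass the test, with limma adjusted p from 0.125 to 0.489.

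Across the roles, 12 of the 34 members tested between the lines were higher in THP1 (35.3% of them against a background of 20.9% of all 14915 genes) and 10 were lower (29.4% against a background of 17.3%). VCAN and LILRB1 passed the filter only through the line in which they were high; among the 32 members expressed in both lines 11 were higher and 9 lower. The median member difference was 0.18, beside 0.01 for all genes.

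Of the Fc receptors and ITAM adaptors 3 of 5 were higher in THP1 and 1 lower, and of the ITIM receptors 3 of 5 were lower and none higher. FCER1G, the ITAM adaptor chain of Fc receptors, was at 53.8, 51.4 and 41.7 TPM in MV4-11 and 214, 207 and 297 TPM in THP1, a 4.77-fold difference (limma adjusted p = 2.06e-10). FCGR2A and FCGR1A, which bind IgG, were 2.83-fold and 2.13-fold higher in THP1. TYROBP, the other ITAM adaptor, did not pass the test (limma adjusted p = 0.162). OSCAR, an FCER1G-coupled collagen receptor of monocytes and osteoclasts, was the 1 lower in THP1, at 20.9, 20.6 and 20.2 TPM in MV4-11 and 1.88, 2.78 and 4.79 TPM in THP1, 5.41-fold lower (limma adjusted p = 4.49e-09). Of the ITIM receptors, CD33, CLEC12A and LILRB1 were lower in THP1, with LILRB1 at 6.59, 6.35 and 6.81 TPM in MV4-11 and 0.413, 0.682 and 0.441 TPM in THP1. LILRB4 and LILRB2 were not called, since their differences on the scale of TPM + 1 were under 1.5-fold (log2 0.44 and -0.40). LILRB2 averaged 2.356 TPM in MV4-11 DMSO and 1.549 TPM in THP1 DMSO, so the added 1 lowered its fold. In the list of other leukocyte immunoglobulin-like receptors and SIGLECs, 8 genes were tested, of which 4 entered through MV4-11 alone, among them SIGLEC7, LILRA1 and SIGLEC9. Of the 4 expressed in both lines 2 were higher in THP1 and 2 lower, beside 20.9% and 17.3% of all genes.

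Both integrins were higher in THP1. ITGAM, which encodes CD11b, was at 0.851, 0.842 and 0.822 TPM in MV4-11 and at 23.8, 24.2 and 27.2 TPM in THP1 (log2 3.82 ± 0.13 SE, limma adjusted p = 3.06e-14). ITGAX, which encodes CD11c and is its neighbor on chromosome 16, was at 3.01, 2.95 and 2.30 TPM against 22.2, 24.7 and 19.5 TPM (log2 2.62 ± 0.17 SE, limma adjusted p = 2.12e-10). The groups did not overlap in either gene.

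Among the remaining surface genes, CX3CR1, the fractalkine receptor of patrolling monocytes, was 3.72-fold higher in THP1 and TLR4, the lipopolysaccharide receptor, 2.12-fold higher. TLR2, which senses bacterial lipopeptides, was 1.81-fold lower, and the scavenger receptor CD36 2.14-fold lower. HLA-DRA, a chain of the class II molecule HLA-DR, was 2.15-fold lower and CD4, a coreceptor that monocytes also carry, 1.51-fold lower. CD4 lies at the fold threshold, and its call was kept in 23 of 27 alternative settings. The growth factor receptors CSF1R, CSF2RA and CSF3R and the chemokine receptor CCR2 were not called; CCR2 fell just short of the fold (log2 0.57, limma adjusted p = 0.00527). CD14, the lipopolysaccharide coreceptor that defines classical monocytes, was at 0.182 to 0.528 TPM over all 18 libraries, which corresponds to 3 to 11 reads a library. CD86, the costimulatory ligand of CD28, was at 0.0947 to 0.837 TPM. Both were too low for a test.

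Of the other lists, the macrophage maturation genes APOC1, APOE and GPNMB averaged 20.3, 5.76 and 11.3 TPM in THP1 and under 1 TPM in MV4-11, so they entered the test through THP1 alone, whereas MRC1, CD163 and MSR1 were at a mean of at most 0.209 TPM in both lines. MARCO, the 1 gene of that list expressed in both lines, averaged 2.33 TPM in MV4-11 and 1.25 TPM in THP1 and was not called. Among the NADPH oxidase genes NCF4 was lower in THP1 (log2 -1.35), and CYBA was the most abundant (mean over 9 libraries 213 TPM in MV4-11 and 203.5 TPM in THP1). Among 4 other class II genes expressed in both lines HLA-DRB1 was higher in THP1 and CD74 lower, while CIITA entered through MV4-11 alone. Of 7 other Toll-like receptor pathway genes 1 was higher, TIRAP, and 3 lower, with CD180 and TLR1 furthest. Of 6 progenitor surface genes 2 were higher, CD38 and CD93, and 3 lower, with FLT3 furthest (log2 -2.58). With so few genes in each of these lists, the counts stand beside the 20.9% of all genes higher and 17.3% lower and say nothing particular to a list.

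With IACS for 8 h, no member was called in either line by limma: 0 of 33 in MV4-11, where 0.0148% of all genes were called, and 0 of 33 in THP1, where 0.0144% were. Without adjustment of the p, the count past 0.05 and the fold was also 0 in both lines. The 8 h and 24 h comparisons of a line share its DMSO libraries. OSCAR had an unadjusted limma p of 0.00139 in MV4-11 at 8 h, with 25.2, 29.6 and 30.4 TPM against 20.9, 20.6 and 20.2 TPM in DMSO, and a fold under the threshold (log2 0.44 ± 0.11 SE, adjusted p = 0.586).

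After 24 h in MV4-11, OSCAR rose. Its 3 values were 33.2, 34.9 and 33.0 TPM, all above the DMSO values given for 8 h, and 1.61-fold higher (log2 0.69 ± 0.11 SE, limma adjusted p = 0.0455). It was the 1 member called of 33, with 0.0738% of all genes called higher. The log2 difference stayed between 0.60 and 0.71 over 20 alternative settings, and the adjusted p ran from 0.0077 to 0.277. The call was lost without any 1 of the 3 DMSO libraries, without replicate 1 or 2 of IACS 24 h and without replicate 2 of IACS 8 h. Without all 3 replicate 3 libraries OSCAR, ITGAX and S100A9 were called, so 2 members were higher and 1 was lower. Of all 13546 genes tested, 238 were then called higher and 82 lower, against 10 and 2 with all libraries.

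Other MV4-11 members at 24 h came near. ITGAX was at 5.97, 7.03 and 4.93 TPM against 3.01, 2.95 and 2.30 TPM in DMSO, with no overlap (log2 0.89 ± 0.15 SE, limma adjusted p = 0.0587). It was called in 10 of 19 alternative settings, with adjusted p from 0.0077 to 0.288. CSF3R, the G-CSF receptor, was at 35.3, 35.9 and 38.5 TPM against 24.4, 23.7 and 23.3 TPM (log2 0.60 ± 0.15 SE, limma adjusted p = 0.153). S100A9, a calcium-binding protein of monocytes and neutrophils, was at 61.5, 56.7 and 87.4 TPM against 98.1, 102 and 122.8 TPM (log2 -0.66 ± 0.23 SE, limma adjusted p = 0.283). With OSCAR, they were the 3 members above and 1 below at an unadjusted p under 0.05 and the same fold, beside 1.71% of all genes above and 0.273% below.

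In 18 of the 33 members every MV4-11 library at 24 h lay above every DMSO library (54.5%, against a background of 19.4% of all genes), and in 3, S100A8, S100A9 and CTSG, every library lay below (9.09%, against 5.26%). The 18 held all 5 ITIM receptors, all 5 Fc receptors and adaptors, all 3 growth factor receptors, both integrins, CX3CR1, CD68 and AZU1. ITGAM passed the 1 TPM filter only through IACS 24 h, the group in which it was high, and without it the count was 17 of 32. After median-of-ratios scaling, an alternative chosen after seeing the data, the counts were 13 higher (39.4%, background 12.2%) and 4 lower (12.1%, background 12.6%). FCGR1A, TYROBP, CSF2RA, CD68 and AZU1 were then no longer among the higher members, and AIF1 joined the lower. LYZ, PRTN3, ELANE and LST1 were in none of these counts. LYZ was at 3881, 3797 and 6988 TPM with replicate 3 far above the others, and PRTN3 at 907, 898 and 1829 TPM. The median member difference was 0.29 beside 0.08 for all genes. Over 24 h against 8 h, 0 of 33 members were called by limma (0% of all genes were called, and 0 members passed the fold with a p under 0.05 before adjustment).

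**Figure D2:**
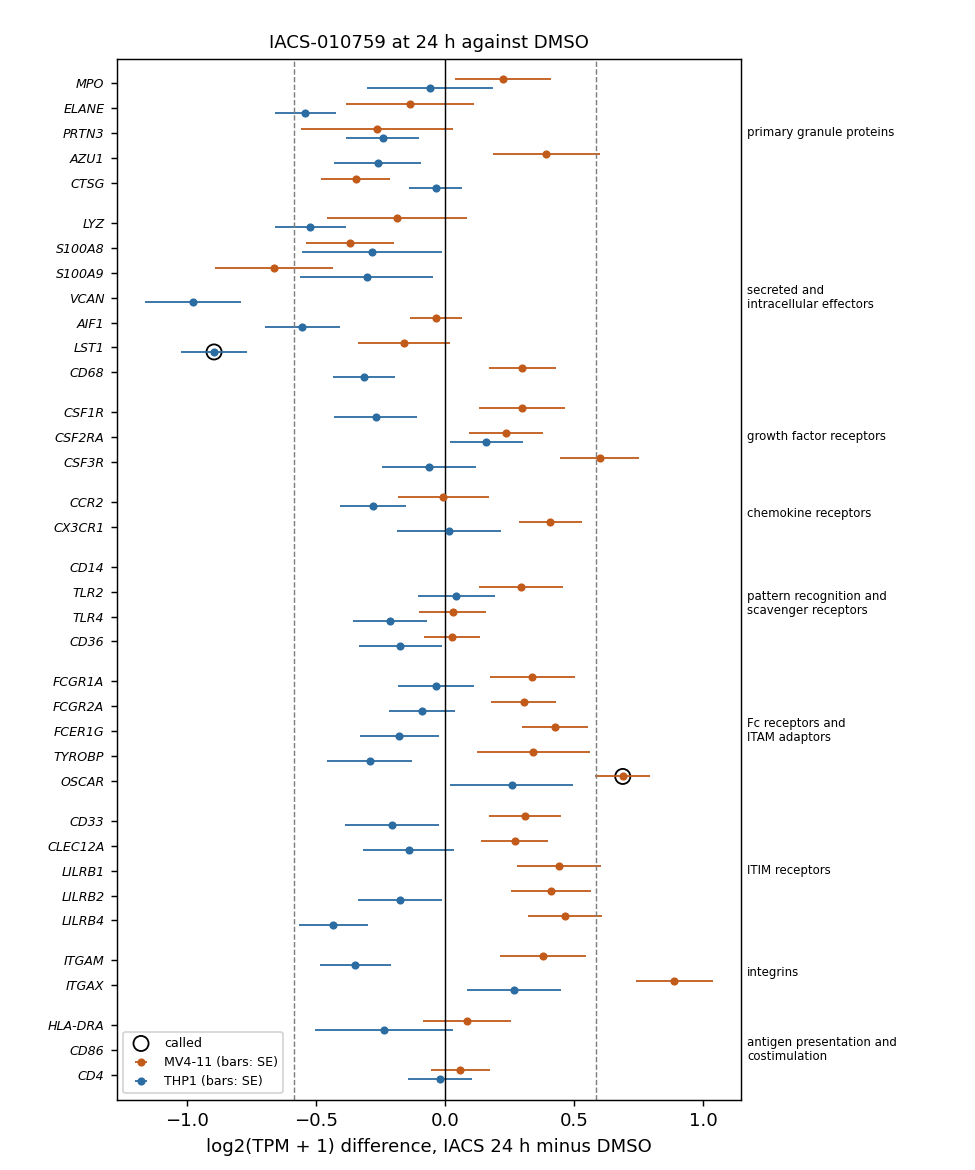
Difference of log2(TPM + 1), IACS 24 h minus DMSO, with SE, for the 33 members tested in MV4-11 (orange) and the 33 tested in THP1 (blue), by role; dashed lines mark the 1.5-fold threshold and black circles the calls. OSCAR in MV4-11 and LST1 in THP1 are the 2 circled points, the tested ITIM receptors lie right of 0 in MV4-11 and left of it in THP1, and CD14 and CD86 have no point.

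In THP1, LST1 fell at 24 h. LST1, which encodes a small transmembrane protein of leukocytes, was at 121, 121 and 132 TPM in DMSO, 112, 142 and 114 TPM at 8 h and 66.1, 65.5 and 68.2 TPM at 24 h. The 24 h libraries lay below all others, 1.86-fold under DMSO (log2 -0.89 ± 0.13 SE, limma adjusted p = 0.0367). It was the 1 member of 33 called, and 0.0359% of all genes were called lower. The log2 difference stayed between -0.91 and -0.76 over 20 alternative settings, and the adjusted p ran from 0.000955 to 0.222. The call was lost without any 1 of the DMSO or 24 h libraries and without replicate 1 of IACS 8 h.

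VCAN was lower too, at 1.10, 1.13 and 1.57 TPM at 24 h against 4.15, 3.05 and 3.21 TPM in DMSO and 2.96, 4.82 and 3.64 TPM at 8 h. Without pairing its log2 difference from DMSO was -0.98 ± 0.18 SE (limma adjusted p = 0.126). Same-numbered libraries of DMSO and IACS 24 h deviated together in THP1, weakly (lowest correlation 0.146, against at most 0.0998 for unlike numbers). With a replicate block LST1 (limma adjusted p = 0.000955) and VCAN (limma adjusted p = 0.0064) were both called, 2 of 33 members beside 1.73% of all genes called lower. Without the block the same 2 members passed an unadjusted p under 0.05 and the fold, beside 1.74% of all genes. Against IACS 8 h, 0 of 33 members were called (0.00718% of all genes were) and the same pair passed at the unadjusted p (0.467% of all genes were lower). With the replicate block, both were called there (limma adjusted p = 0.00223 for LST1 and 0.0105 for VCAN, with 0.373% of all genes called lower).

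In 10 of 33 THP1 members every 24 h library lay below every DMSO library (30.3%, against a background of 10.2%), and in 1, CSF2RA, every library lay above (3.03%, against 3.32%). The 10 were CCR2, VCAN, CSF1R, LST1, AIF1, LYZ, ITGAM, CD68, ELANE and LILRB4. ELANE was at 666, 763 and 615 TPM against 968, 992 and 1005 TPM (log2 -0.54 ± 0.12 SE, limma adjusted p = 0.218). LYZ was at 650, 613 and 801 TPM against 985, 874 and 1100 TPM (log2 -0.52 ± 0.14 SE, limma adjusted p = 0.385). AIF1, a calcium-binding protein of monocytes and the neighbor of LST1, was at 78.3, 78.6 and 101 TPM against 127, 112 and 140 TPM (log2 -0.55 ± 0.15 SE, limma adjusted p = 0.385), and it was called without the replicate 3 libraries (log2 -0.60, limma adjusted p = 0.0207). After median-of-ratios scaling the counts were 5 lower (15.2%, background 14.2%) and 2 higher (6.06%, background 13.0%). The 5 were VCAN, LST1, ELANE, CD33 and LILRB4, and their share was near the background. CTSG, at 1133, 1131 and 1110 TPM at 24 h, differed from DMSO by a log2 of -0.04 (limma adjusted p = 0.93).

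**Figure D3:**
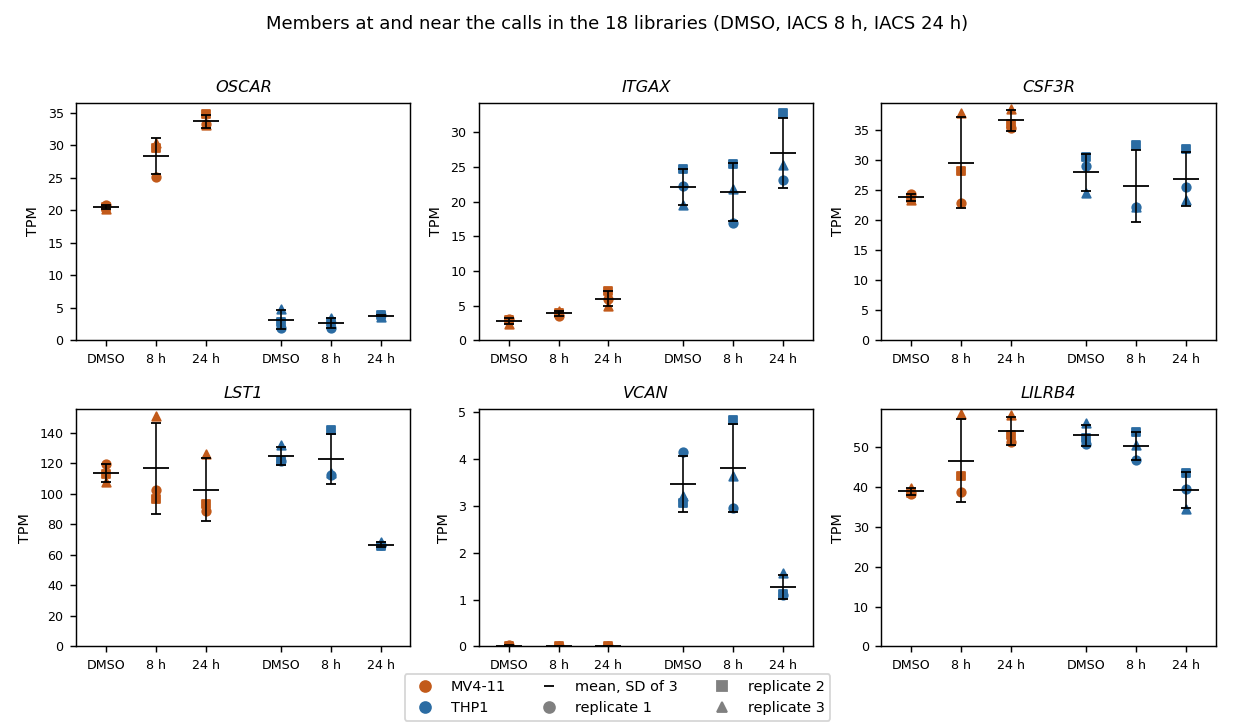
TPM of OSCAR, ITGAX, CSF3R, LST1, VCAN and LILRB4 in each library of MV4-11 (orange) and THP1 (blue) under DMSO, IACS 8 h and IACS 24 h, with marker shape for the replicate number and bars for the mean ± SD of 3. The 3 OSCAR values at 24 h in MV4-11 (33.0 to 34.9 TPM) lie above DMSO (20.2 to 20.9 TPM), and the 3 LST1 values at 24 h in THP1 (65.5 to 68.2 TPM) lie below all other THP1 values.

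The difference between the lines in the response to IACS was tested as an interaction on the 32 members expressed in both. None was called at 8 h (0 of 32, background 0.00796%) and none at 24 h (0 of 32, background 0.00796%). Before adjustment, the count past a p of 0.05 and the fold was 0 at 8 h and 10 at 24 h (31.2%, background 3.85%), all 10 more negative in THP1. They were CSF3R, FCER1G, LST1, ITGAM (with the limit on its filter given above), ITGAX, CD68, AZU1, TYROBP, LILRB2 and LILRB4. The lead was LILRB4, a restraining receptor of monocytes, at 38.2, 38.6 and 39.9 TPM in MV4-11 DMSO and 51.3, 53.1 and 58.0 TPM at 24 h, and at 50.7, 52.3 and 56.0 TPM in THP1 DMSO and 39.5, 43.5 and 34.5 TPM at 24 h. Its values did not overlap in either line, and they lay in opposite directions (difference of the log2 changes -0.90 ± 0.19 SE, limma adjusted p = 0.199, and 0.0192 with a replicate block). The block takes same-numbered libraries as pairs in both lines. In MV4-11 those of DMSO and 24 h did not all deviate together (lowest correlation 0.066, against at most 0.355 for unlike numbers). The median member difference at 24 h was -0.40, beside -0.20 for all genes. After median-of-ratios scaling the medians were -0.18 and 0.01. Then 1 of 32 members passed the unadjusted p and the fold, more negative in THP1, beside 153 of all 12533 genes in that direction.

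**Figure D4:**
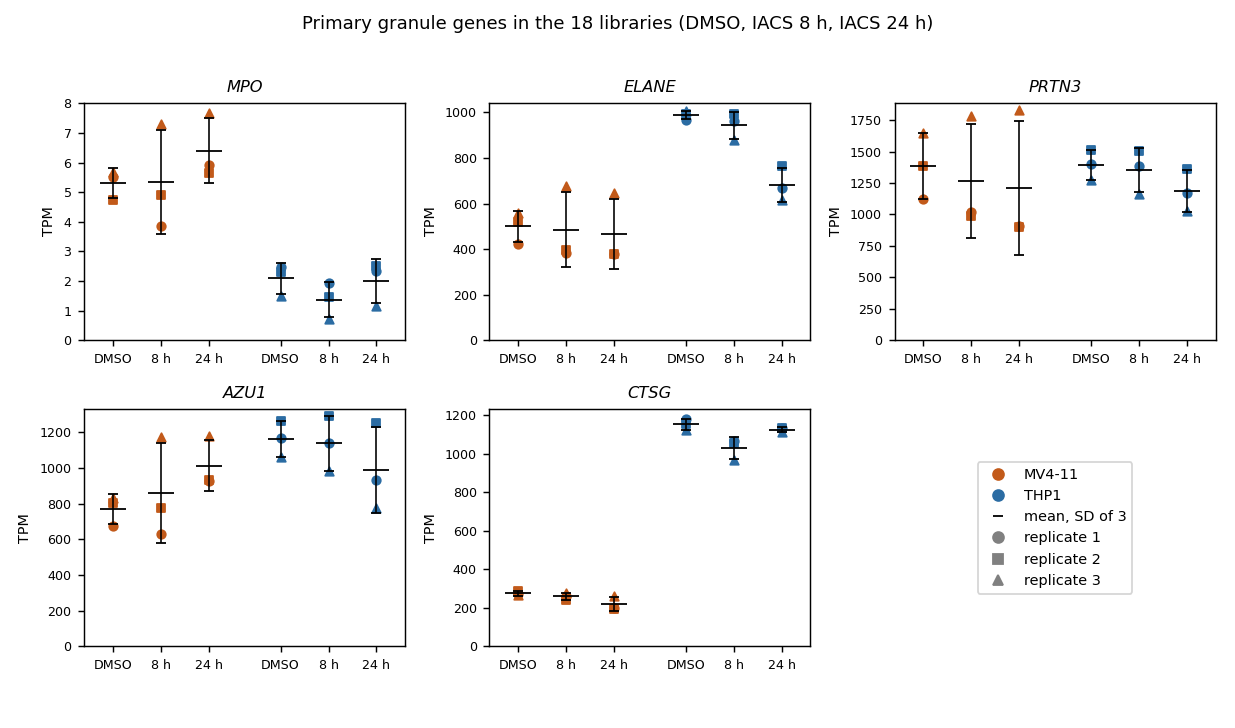
TPM of the 5 primary granule genes in each library of MV4-11 (orange) and THP1 (blue) under DMSO, IACS 8 h and IACS 24 h, with marker shape for the replicate number and bars for the mean ± SD of 3. PRTN3, ELANE and AZU1 in the IACS groups of MV4-11 are highest in replicate 3, and CTSG is separate between the lines in every library.

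The granule proteases as a role gave no call with IACS in either line. In MV4-11 replicate 3 was apart: ELANE was at 383, 398 and 676 TPM at 8 h and at 378, 378 and 644 TPM at 24 h, with replicate 3 the highest at both times. AZU1 was at 926, 935 and 1181 TPM at 24 h against 678, 802 and 831 TPM in DMSO (log2 0.39 ± 0.21 SE, limma adjusted p = 0.484). CTSG was at 200, 197 and 260 TPM against 273, 290 and 266 TPM (log2 -0.35 ± 0.13 SE, limma adjusted p = 0.323). None of the other granule, NADPH oxidase, class II, Toll-like receptor, receptor, macrophage or progenitor genes was called with IACS by limma without a block. Before adjustment, CYBB in MV4-11 (log2 0.59, limma adjusted p = 0.126) and APOC1 and CST7 in THP1 passed a p of 0.05 and the fold at 24 h against DMSO. With the replicate block APOC1, a lipid transport protein (log2 -0.67, limma adjusted p = 0.00607), and CST7, an inhibitor of granule cathepsins (log2 -0.75, limma adjusted p = 0.00788), were called lower in THP1 at 24 h, as they were against IACS 8 h (limma adjusted p = 0.011 and 0.0201).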

How the data were processed

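The authors trimmed paired-end reads, aligned them to GRCh38 with CLC Genomics Workbench v20 and deposited TPM per gene symbol; the annotation release and the strand setting are not given in the sources used here. From the deposited TPM of 18 libraries, log2(TPM + 1) was computed and tested with limma 3.58.1 (R 4.3.3, variance trend) in 1 fit of 9 libraries per line over genes averaging 1 TPM or more, in a fit of 18 libraries for the lines and in an interaction fit. Calls were made at 1.5-fold and an adjusted p (Benjamini-Hochberg, all genes tested) below 0.05. The rank tests of the study, counted at an unadjusted p with the fold, were an alternative, since limma pools the spread of 3 libraries over genes. The members and lists were chosen with earlier results of these data known. All 36 members are named; from each of 7 further lists the rule names the most abundant gene and, per comparison, the 3 called genes with the largest change. The undetected granule and macrophage genes, MARCO, CD38 and NKG7 were named after their values were seen. Reads per library were estimated from whole-read steps (77.4% to 79.5% of low values within 0.02 of a whole number, lengths from GENCODE release 44). Pairing was checked by the correlation of same-numbered libraries' deviations: every pair exceeded 0.1 in THP1 between DMSO and 24 h (0.146, 0.157 and 0.324) and between 8 h and 24 h, and in MV4-11 between 8 h and 24 h, but not between DMSO and 8 h in either line or DMSO and 24 h in MV4-11. Libraries with unlike numbers correlated by at most 0.0998 for DMSO and 24 h in THP1. For 8 h and 24 h the highest was 0.149 in THP1 and 0.387 in MV4-11, there above the lowest same-numbered value of 0.110. After median-of-ratios scaling the lowest same-numbered value for DMSO and 24 h in THP1 was 0.131, against 0.124 for unlike numbers. For 8 h and 24 h in MV4-11 it was then 0.0903. The alternatives were another pseudocount, other filters, scalings and tests, the replicate block, and libraries left out. Some items of the further lists are not reported here.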

Additional observations from a re-analysis of the deposited data

How the results depend on the processing

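Members called between the lines stayed within 1.5 times of 22 under every alternative, as did the expressed members of each line (31 to 34), and none of the 40 log2 changes that were called or passed an unadjusted p with the fold reversed its sign. No alternative called a member at 8 h or in MV4-11 at 24 h against 8 h. Counts by Kruskal-Wallis and Dunn tests used an unadjusted p under 0.05 in both tests with the same fold, unlike the adjusted limma counts. For MV4-11 at 24 h (1 called), 0 were called with a pseudocount of 0.1, no filter or no variance trend, 2 with median-of-ratios scaling, without the 5 noncoding RNAs or by Kruskal-Wallis and Dunn tests, 3 with only the groups compared or without all replicate 3 libraries (added after seeing the data), and 4 at an unadjusted p. Leaving out 1 library gave 0 to 3. For THP1 at 24 h (1 called), 0 were called with no variance trend or by Kruskal-Wallis and Dunn tests, 2 with median-of-ratios scaling, without the 5 noncoding RNAs or at an unadjusted p, and 3 without all replicate 3 libraries; leaving out 1 library gave 0 to 1. For THP1 at 24 h against 8 h (0 called), 1 was called among genes averaging 10 TPM or more, and 2 with median-of-ratios scaling, without the 5 noncoding RNAs, without all replicate 3 libraries or at an unadjusted p. For the interaction at 24 h (0 called), 10 passed at an unadjusted p, and leaving out 1 library gave 0 to 1 (LILRB4, without MV4-11 IACS 8 h replicate 3). Over all genes, 12 were called in MV4-11 at 24 h (10 higher, 2 lower), 84 with median-of-ratios scaling (58 higher, 26 lower), 2 with no filter and 320 without all replicate 3 libraries. In THP1 at 24 h, 6 were called (1 higher, 5 lower), 99 with median-of-ratios scaling (50 higher, 49 lower), 23 by Kruskal-Wallis and Dunn tests and 181 without all replicate 3 libraries. The cause of these changes was not tested.

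With the replicate block, 3 members were called in MV4-11 at 24 h (OSCAR, ITGAX and S100A9), 2 in THP1 at 24 h, 2 in THP1 at 24 h against 8 h, and 3 in the interaction at 24 h (ITGAM, CD68 and LILRB4, besides CYBB and LILRA2 of the further lists, both at an adjusted p of 0.00807 by limma); with median-of-ratios scaling as well, the counts were 3, 2, 2 and 1. The block moved the count over all genes to 100 in MV4-11 and 296 in THP1 at 24 h. For THP1 at 24 h against 8 h it was 114, and for the interaction at 24 h it was 94 of 12555 genes. ITGAM carries the limit on its filter given above. The block changed no other call of a member. For DMSO and IACS 24 h in MV4-11 the correlations were 0.269, 0.066 and 0.441, so not every pair exceeded 0.1. For the comparison between the lines alone no paired analysis was possible, because the block is nested in the line.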
